A study of Homo sapiens with 3 samples.

Results

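The genes described here build the red cell membrane or sit on its surface. They are the 8 genes GYPB, GYPC, EPOR, SPTB, ANK1, EPB41, EPB42 and SLC4A1, chosen by name and function, with earlier results of these data known, out of 58735 genes in the deposited files. Their RNA levels were compared among 3 sequenced libraries of a human cell line that the labels call KG1a, which is known as an acute myeloid leukaemia line. All cells had been infected with a lentivirus: the control (1 library, genotype labelled wild type) received a control short hairpin RNA, and the TRAF7 knockdown group (2 libraries, numbered 1 and 2) received short hairpin RNA directed at TRAF7, which encodes a ubiquitin ligase. Nothing in the labels tells whether the knockdown pair was grown separately or carries different hairpins. Every p-value thus rests on the spread between these 2 libraries, partly pooled over genes, and that spread may be technical.

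The red cell membrane is a lipid bilayer held to a flexible protein net. Spectrin tetramers, which include the beta chain (SPTB), form the net; ankyrin (ANK1) ties beta spectrin to the anion exchanger band 3 (SLC4A1), with EPB42 bound at that junction, and EPB41 ties spectrin and actin to glycophorin C (GYPC). Glycophorins such as GYPB are sialic acid-rich surface proteins that carry blood group antigens. The erythropoietin receptor (EPOR) signals through JAK2 and STAT5 and keeps erythroid precursors alive; most of the membrane proteins accumulate as those precursors mature.

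The libraries hold 16014485 (control), 16221721 (knockdown 1) and 16254461 (knockdown 2) gene-assigned reads. Values are FPKM, which divide a gene's reads by its exon length and by a factor per library. Over the geometric mean of the library totals that factor was 1.0446 (control), 0.9629 (knockdown 1) and 1.0061 (knockdown 2), equal to median-of-ratios size factors and not in the order of the read totals. The intervals given are 95% Poisson intervals that cover counting error only. The control level of TRAF7, the targeted gene, was 46.5 FPKM; knockdown 1 held 15.6 FPKM (33.6% of the control) and knockdown 2 held 18.3 FPKM (39.4%). The label KG1a goes with the surface antigen CD34, and CD34 had 0, 1 and 10 reads in control, knockdown 1 and knockdown 2 (0, 0.00697 and 0.0667 FPKM; the floor of 3 reads is 0.0193 FPKM in the control). Of the other 8 KG1a and progenitor markers, FLT3 and PROM1 had 0 reads in every library (the floor of 3 reads is at most 0.0463 FPKM), and MPO and THY1 had at most 3. The remaining markers of the list were detected: SPN at 46.2, 45.3 and 32.9 FPKM, the leukocyte antigen PTPRC at 9.54, 5.60 and 6.53, CD33 at 5.37, 2.66 and 5.48, and the receptor KIT at 0.447, 1.05 and 1.43 (42, 91 and 129 reads). The adhesion receptor CD44 had 0, 2 and 7 reads. In contrast the erythroid transcription factor gene GATA1 was at 128.5, 104.5 and 115.6 FPKM, KLF1 at 56.5, 61.7 and 55.8, and RHAG, the Rh-associated glycoprotein of the red cell membrane, at 208.1, 228.1 and 229.0. Other erythroid markers were low, such as AHSP at 4, 7 and 5 reads, HBE1 at 8, 3 and 3 and HBB at 13, 7 and 40. The level of CD34 therefore goes against the label in all 3 libraries, and the cells are called by their label only.

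The sequence of GYPB shows why its values need care, because GYPB belongs to a family of close copies on chromosome 4, GYPE among them. Over all annotated transcripts (GENCODE release 29), 12.7% of the 50-base words of GYPB also occur in other genes; GYPE accounts for only 1.05%, and the rest lies in genes not reported here. No source used here gives the read length or the treatment of reads that match several genes, so the assignment of reads to GYPB is uncertain.

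Sequence before the start sites was read for the members in RefSeq's promoter table (GRCh38.p14), which held 9 windows for 6 of the 8 genes; ANK1 and SLC4A1 were not matched. Each window runs from 250 bases before to 50 bases after a start. They were searched for the words bound by GATA factors on either strand, which were the word AGATAA, the word AGATAG, the word TGATAA and the word TGATAG, since GATA1 is the master regulator of red cell genes. At least 1 such word stood in 7 of the 9 windows and in at least 1 window of each of the 6 genes; of all 35116 windows in the table, 25.0% held one. The 2 GYPB windows overlap and share their words. CACCC, the core of the words bound by KLF1 (GGGTG on the other strand), stood in 5 of the 9 windows, against 59.9% of all windows. A match is a description of letters, not of a site in use. The 250 bases before the upstream SPTB start (chr14:64879908-64880157, minus strand) hold a pair of GATA words, in capitals, and are shown because SPTB had the largest fitted difference of the tested members.
SPTB: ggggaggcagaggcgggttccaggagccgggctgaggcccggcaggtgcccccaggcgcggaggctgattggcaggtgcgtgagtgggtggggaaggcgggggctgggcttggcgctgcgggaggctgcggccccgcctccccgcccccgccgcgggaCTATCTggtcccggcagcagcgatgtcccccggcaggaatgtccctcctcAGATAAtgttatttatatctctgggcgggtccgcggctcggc
Stretches of 30 bases around the GATA word nearest to the start are given for 4 other members, in the order of their levels in the control. EPB41 also holds such a word, which is not shown. The stretches lie at chr2:126656082-126656111 (plus strand), chr19:11384375-11384404, chr4:144019367-144019396 and chr15:43221062-43221091 (all minus strand).
GYPC: aatgaagtctgcCTATCTccgggccagagc
EPOR: cccgccaggcacTTATCTctacccaggctg
GYPB: ggtgggcctggaAGATAAcagctagtaggc
EPB42: tcctggcacaagAGATAAaatgaacagggt
The first base of the word lies 64 bases (GYPC), 78 (EPOR) and 61 (EPB42) before the RefSeq start. For GYPB it lies 4 bases before the upstream start, so that the word runs over that start, and 39 before the other start. EPB42, at 3 reads or fewer in every library, holds such a word as GYPC does, the member with the highest level.

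Of the 8 members, 6 averaged 1 FPKM or more over the libraries and entered the test, which was limma with intensity trend on log2(FPKM + 1); SLC4A1 and EPB42 did not. By limma, 0 of the 6 passed an adjusted p of 0.05, where the percentage called among all 12640 genes tested was 0; 1 member (SPTB) had an unadjusted p under 0.05, against 9.19% of all genes (5.46% higher and 3.73% lower). By limma-voom, run on the recovered whole reads, 0 of 7 members passed, against 0.865% of 15034 genes, and 2 (SPTB and SLC4A1) had an unadjusted p under 0.05, against 12.1%. TRAF7 itself did not pass by limma (log2 difference −1.41 ± 0.19, SE, limma adjusted p = 0.274). It passed by limma-voom (limma-voom adjusted p = 2.69e-05). A member that did not pass by limma is therefore not shown to be unchanged. Both knockdown libraries were above the control for 2 of the 6 tested members (42.5% of all genes), and both were below it for 1 (30.8%). The libraries went different ways for 3 (26.7%). The median fitted log2 difference was 0.10 over the 6 members and 0.04 over all genes tested. At least 1.5-fold in the same direction in both libraries was reached by 0 of the 6, against 6.36% of all genes tested (2.67% higher and 3.69% lower). The members thus had no common direction.

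**Figure D1:**
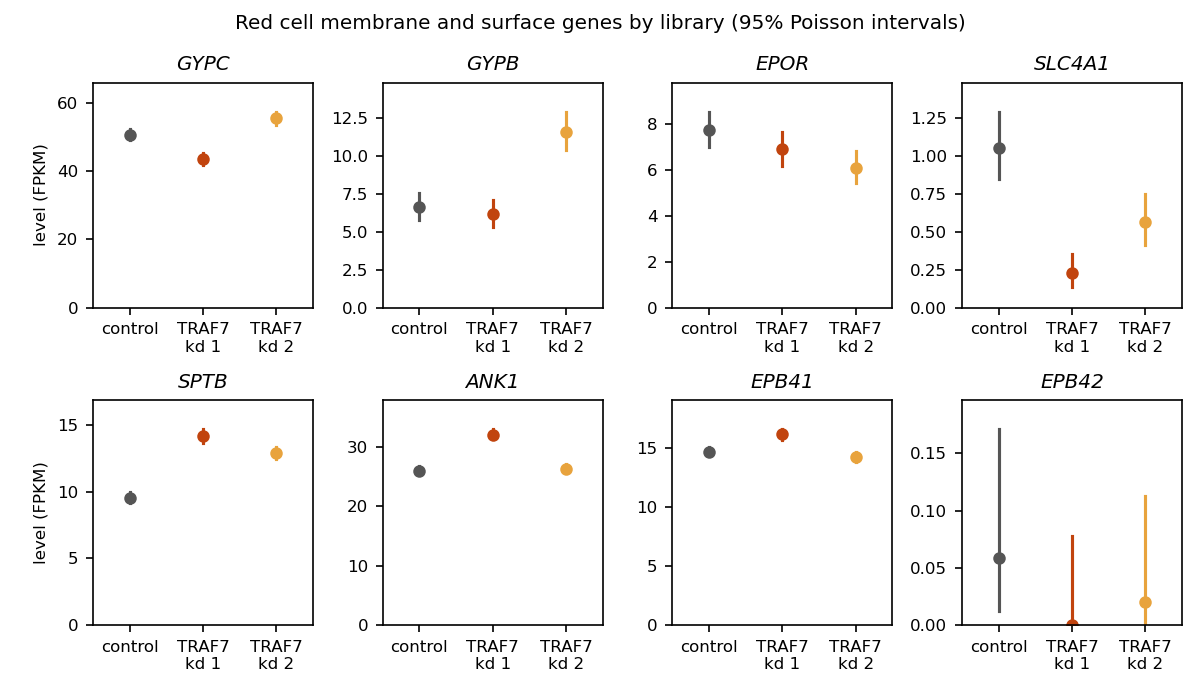
Level of each of the 8 genes in FPKM (vertical axis, starting at 0, with its own scale for each gene) in the control, TRAF7 knockdown 1 (kd 1) and TRAF7 knockdown 2 (kd 2); points are single libraries and bars are 95% Poisson intervals. SPTB is higher and SLC4A1 lower in both knockdown libraries, with bars apart from the control, and GYPB is high in knockdown 2 only, at 11.6 FPKM.

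By level, the order in the control was GYPC, ANK1, EPB41, SPTB, EPOR, GYPB, SLC4A1 and EPB42, from 50.8 FPKM to 0.0585. Knockdown 1 had the same order, and in knockdown 2 GYPB stood above EPOR. Neighbours whose intervals overlapped were EPOR and GYPB in the control and in knockdown 1, and SPTB and GYPB in knockdown 2. GYPC lay above 96.6% of protein-coding genes in the control, and SLC4A1 above 50.3%.

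Beta spectrin had the largest fitted difference among the tested members. SPTB (ENSG00000070182, chromosome 14, 64746283 to 64879907, minus strand, GRCh38) was at 9.58 FPKM in the control (interval 9.20 to 9.97, from 2393 reads), against 14.2 in knockdown 1 (13.7 to 14.7, from 3265 reads) and 12.96 in knockdown 2 (12.5 to 13.4, from 3118 reads). Both knockdown libraries were above the control, by 1.48-fold and 1.35-fold, and their intervals did not reach that of the control, which held for 16.0% of all genes tested. The fitted log2 difference was 0.46 ± 0.18 (SE; limma adjusted p = 0.536), so SPTB did not pass. Exons of PLEKHG3, a gene on the other strand, cover 23.0% of the SPTB exon bases, and no source used here states whether counting used strand; PLEKHG3 itself was at 0.109, 0.102 and 0.103 FPKM. The spectrins of other cells gave other values: SPTAN1 had a fitted log2 difference of −0.17 (limma adjusted p = 0.825) and SPTBN1 of 0.13 (limma adjusted p = 0.865).

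Ankyrin was abundant and differed little. ANK1 (ENSG00000029534, chromosome 8, 41653220 to 41896762, minus strand) was at 25.9 FPKM in the control (25.2 to 26.7), against 32.02 in knockdown 1 (interval 31.2 to 32.9) and 26.2 in knockdown 2 (25.5 to 27.0). Knockdown 1 stood above the other libraries, while the control and knockdown 2 overlapped, and the fitted log2 difference was 0.15 ± 0.20 (SE; limma adjusted p = 0.839). In knockdown 2 alone it was 0.02. Its sign turned to −0.01 under quantile normalization.

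EPB41, which binds spectrin and actin, had the smallest spread of the tested members over the libraries. EPB41 (ENSG00000159023, chromosome 1, 28887091 to 29120046, plus strand) was at 14.7 FPKM in the control (14.3 to 15.1), against 16.2 in knockdown 1 (interval 15.7 to 16.6) and 14.2 in knockdown 2 (13.8 to 14.7). Knockdown 1 was the higher library and knockdown 2 overlapped the control. The fitted log2 difference was 0.04 ± 0.19 (SE; limma adjusted p = 0.965), and it was below 0 under each of the other 3 scalings tried. EPB41 yields many spliced forms, which gene-level FPKM does not separate. EPB42 (ENSG00000166947, chromosome 15, 43197227 to 43221125, minus strand), the protein that stabilises the band 3 and ankyrin junction, had 3 reads in the control, 0 in knockdown 1 and a single read (1) in knockdown 2. All 3 libraries were thus at or under the floor of 3 reads (0.0585, 0.0634 and 0.0607 FPKM), and no fold is given.

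Band 3 was low and lower still in the knockdown libraries. SLC4A1 (ENSG00000004939, chromosome 17, 44248385 to 44268141, minus strand) was at 1.05 FPKM in the control (interval 0.846 to 1.29, from 91 reads), against 0.225 in knockdown 1 (0.134 to 0.356, from 18 reads) and 0.563 in knockdown 2 (0.414 to 0.749, from 47 reads). The 3 intervals were apart from each other, with knockdown 1 the lowest, and both knockdown intervals lay below that of the control. The same held for 7.81% of the genes tested, a set of more abundant genes that leaves out SLC4A1. The levels of SLC4A1 were 21.5% and 53.6% of the control. Its mean of 0.613 FPKM kept it out of the main test. By limma-voom its log2 difference was −1.53 ± 0.47 (SE; limma-voom adjusted p = 0.117), which did not pass, and by limma with no filter on low values it was −0.57 with an adjusted p of 0.571. SLC4A2, the relative of band 3 found in most tissues, was at 35.2, 47.0 and 34.1 FPKM, 33.5 times the level of SLC4A1 in the control, 208 times in knockdown 1 and 60.6 times in knockdown 2. The red cell transporter SLC4A1 was thus the minor of these anion exchanger transcripts in every library.

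For the glycophorins the knockdown libraries lay on different sides of the control, with intervals apart from each other. GYPC (ENSG00000136732, chromosome 2, 126655933 to 126696670, plus strand) was at 50.8 FPKM in the control (49.1 to 52.6), against 43.7 in knockdown 1 (interval 42.0 to 45.4) and 55.6 in knockdown 2 (53.7 to 57.5). The control lay between the knockdown libraries, with all 3 intervals apart, and the fitted log2 difference was −0.04 ± 0.20 (SE; limma adjusted p = 0.968). GYPB (ENSG00000250361, chromosome 4, 143996104 to 144019345, minus strand) was at 6.61 FPKM in the control (interval 5.75 to 7.57, from 209 reads), against 6.14 in knockdown 1 (5.28 to 7.11, from 179 reads) and 11.6 in knockdown 2 (10.4 to 12.9, from 353 reads). Knockdown 2 alone stood out, at 1.75-fold of the control, whereas knockdown 1 overlapped it at 92.9%. The fitted log2 difference of GYPB was 0.32 ± 0.34 (SE; limma adjusted p = 0.801), and knockdown 1 alone gave −0.09 and knockdown 2 alone 0.73. 

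GYPE, a neighbour of GYPB on chromosome 4, had the same order of libraries, at 26.2 FPKM in the control, against 22.2 in knockdown 1 and 38.1 in knockdown 2 (fitted log2 difference 0.15 ± 0.32, SE; limma adjusted p = 0.918). Its level was 3.96 times that of GYPB in the control, 3.61 times in knockdown 1 and 3.28 times in knockdown 2. GYPC, GYPB and GYPE were thus each lowest in knockdown 1 and highest in knockdown 2. Between the knockdown libraries the intervals were apart for 5 of the 6 tested members, all but EPOR, against 34.0% of all genes tested. Such intervals narrow as reads rise, and the genes behind that share were not matched to the members for read number.

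The erythropoietin receptor was at 89.1% and 78.8% of the control in knockdown 1 and 2. EPOR (ENSG00000187266, chromosome 19, 11377205 to 11384342, minus strand) was at 7.75 FPKM in the control (interval 7.01 to 8.55, from 403 reads), against 6.91 in knockdown 1 (6.18 to 7.69, from 331 reads) and 6.11 in knockdown 2 (5.45 to 6.84, from 306 reads). The interval of knockdown 1 overlapped that of the control and that of knockdown 2, while knockdown 2 lay below the control. The fitted log2 difference was −0.22 ± 0.18 (SE; limma adjusted p = 0.728), so EPOR did not pass.

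**Figure D2:**
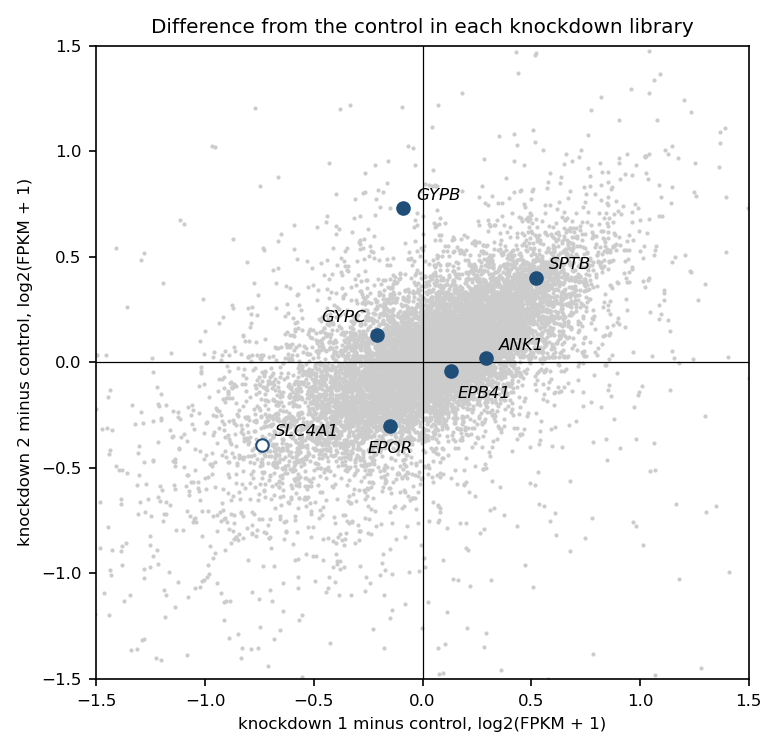
Difference from the control on the log2(FPKM + 1) scale in knockdown 1 (horizontal axis) and knockdown 2 (vertical axis); grey points are the genes tested, filled points the 6 tested members and the open point SLC4A1, which was below the filter. The axes share the control library and leave out 162 of the 12640 genes; SPTB lies in the upper right, EPOR and SLC4A1 in the lower left, and GYPB at −0.09 and 0.73.

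The other genes of the membrane and of erythropoietin signalling were taken from lists written with earlier results of these data known. Of all genes tested, 42.5% were higher in both knockdown libraries, 30.8% lower in both and 26.7% different between them. An unadjusted p under 0.05 was reached by 9.19% of genes by limma and by 12.1% by limma-voom. Those shares are the background for each list below. In the membrane skeleton list, 14 of 15 genes were tested, 6 higher in both libraries, 3 lower in both and 5 different between them, with a median fitted log2 difference of 0.12; by limma 0 passed, with 1 gene higher (SPTB) and 1 lower at an unadjusted p under 0.05. The lower gene was DMTN, which bundles actin at the spectrin junctions, at 5.89, 3.71 and 3.97 FPKM (log2 difference −0.51 ± 0.18, SE; limma adjusted p = 0.50). TMOD1, which caps the short actin filaments, was at 11.0, 13.2 and 15.4 FPKM, and STOM, an integral membrane protein, at 26.7, 23.8 and 21.3. Skeleton genes thus lay on both sides of the control. By limma-voom 0 of 14 passed, with 4 at an unadjusted p under 0.05.

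Among 23 surface proteins and transporters, 16 were tested, 7 higher in both libraries, 3 lower in both and 6 different, with a median of 0.01. By limma 0 passed, and SLC2A1 alone had an unadjusted p under 0.05; by limma-voom 0 of 18 passed, with 2 at an unadjusted p under 0.05. SLC2A1, the glucose carrier of the red cell, was at 22.1, 31.3 and 30.4 FPKM (log2 difference 0.46 ± 0.17, SE; limma adjusted p = 0.524). SLC29A1, a nucleoside transporter, was at 18.1, 25.1 and 22.0, and BSG, which carries the Ok blood group antigen, at 128.3, 144.4 and 160.8. BCAM, the Lutheran blood group protein, was at 4.65, 2.80 and 4.37, lower mainly in knockdown 1. In the list of nonerythroid relatives, 6 of 15 genes were tested, 2 higher in both, 2 lower in both and 2 different (median 0.03), and 0 passed by limma, with 0 at an unadjusted p under 0.05; by limma-voom 0 of 11 passed, with 1 at an unadjusted p under 0.05.

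Genes of erythropoietin receptor signalling lay mostly below the control by small amounts. Of 20 genes 18 were tested, 10 lower in both libraries (30.8% of all genes tested), 2 higher in both (42.5%) and 6 different, with a median of −0.10 where all genes tested had 0.04. By limma 0 passed and 0 had an unadjusted p under 0.05; by limma-voom 0 of 19 passed, with 1 at an unadjusted p under 0.05. ERFE, the hormone by which erythroblasts restrain hepcidin, was at 3.65, 1.67 and 2.58 FPKM (log2 difference −0.59 ± 0.25, SE; limma adjusted p = 0.556). The signal transducer STAT5A was at 143.3, 124.3 and 125.7, the kinase PIM1, a STAT5 target, at 200.8, 164.4 and 191.1, and the feedback inhibitor SOCS3 at 1.99, 1.08 and 1.66. In these examples knockdown 1 was the lowest library, whereas EPOR, of the same list, was lowest in knockdown 2.

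**Figure D3:**
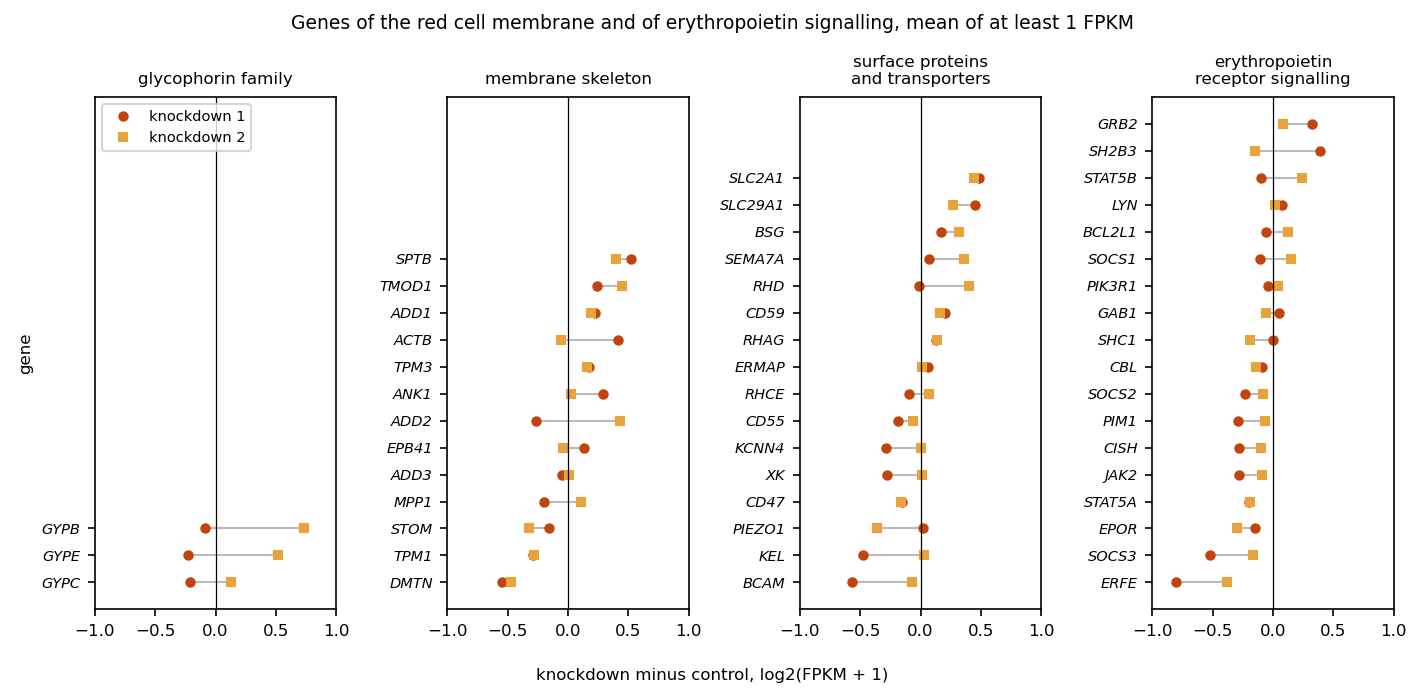
Difference from the control on the log2(FPKM + 1) scale (horizontal axis) for tested genes of 4 lists, some of which are not reported here and not drawn, with circles for knockdown 1, squares for knockdown 2 and genes ordered by the fitted difference. SPTB leads the skeleton list with both symbols close together, and GYPB, GYPC and GYPE have their symbols on opposite sides of 0.

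Marker lists differed between the libraries beside these values, and their part in them was not tested. The summed level of 15 erythroid marker genes was 580.7 FPKM in the control, against 743.6 in knockdown 1 and 773.5 in knockdown 2. Of these, 12 were tested, 7 higher in both (42.5% of all genes tested) and 2, ALAS2 and GATA1, lower in both (30.8%). By limma-voom 4 of 13 passed (the globin genes HBA1, HBA2, HBG1 and HBZ), against 0.865% of all genes. By that test 4 had an unadjusted p under 0.05 (12.1% of all genes). By limma 0 passed, with 4 at an unadjusted p under 0.05 (9.19%). HBA1 was at 22.9, 90.2 and 74.75 FPKM, ALAS2 at 11.2, 6.985 and 9.135, and HEMGN at 22.9, 6.44 and 34.3. The sum thus does not stand for a common rise of the erythroid markers. HBZ, embryonic zeta-globin, was at 65.7, 109.4 and 133.0 FPKM. The 4 globin transcripts that passed by limma-voom stood above the control in both knockdown libraries. They were singled out for passing in these same libraries. Their shared direction follows largely from that choice and cannot be set against the membrane genes. HBG2 was above the control in both, at 14.6, 16.6 and 17.05 FPKM, but both intervals overlapped that of the control. HBD was above it in both at few reads (14, 24 and 39), and its knockdown 1 interval overlapped that of the control. HBB was not above the control in both, at 0.59, 0.345 and 1.89 FPKM (13, 7 and 40 reads). HBE1 was lower in both, at 8, 3 and 3 reads. The difference between globin and membrane genes was not tested. The 8 megakaryocyte and platelet markers summed to 5.75, 3.75 and 4.65 FPKM, with PF4, GP1BB and GP9 at 0 reads. Lymphoid markers (8 genes) summed to 7.39, 5.71 and 6.84, nearly all of it CD3D at 6.63, 4.36 and 5.69, with MS4A1 at 0 reads. The 9 KG1a and progenitor markers summed to 61.6, 54.6 and 46.5 FPKM; KIT was above the control in both knockdown libraries with intervals apart from it, and PTPRC below it in both (log2 difference −0.58 ± 0.19, SE; limma adjusted p = 0.488). The 9 stromal and epithelial markers summed to 168.0, 183.5 and 178.4, led by KRT18, KRT8 and KRT19, while COL1A2 and CDH1 had at most 2 reads. In a bulk sample a change in the share of cells and a change in RNA per cell cannot be told apart.

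Genes whose pair of differences lay nearest to a member's were sought among protein-coding genes averaging 5 FPKM or more, by Euclidean distance over the 2 differences, which share the control. For SPTB these were SEPHS1 (distance 0.0038) and NDUFAF1 (0.0078), and 306 tested genes lay within 0.1. For EPOR they were FLYWCH1 (0.0027) and ATN1 (0.010), with 307 within 0.1; for GYPC ARHGAP19 (0.0041) and ZCCHC9 (0.0055), with 278. ANK1 had SBNO1 (0.0032) and ICE1 (0.0060), with 593, and EPB41 had GTPBP1 (0.0010) and ROR2 (0.0023), with 936. GYPB lay apart: its nearest were TUBB2B (0.12) and TFPI (0.16), and only 4 tested genes lay within 0.1. With 2 differences per gene, at least 278 tested genes lay this near for 5 of the 6 tested members.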

How the data were processed

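The authors deposited FPKM values, 1 per gene and library, for 58735 Ensembl identifiers, per the file headers. The submitters' processing notes list BWA, Bowtie and hg19 without saying what each did; no source used here names a counting tool. All identifiers matched GENCODE release 29 (GRCh38), from which symbols and coordinates were taken. Multiplied by exon length, 100% of the nonzero values were whole multiples (within 0.05) of what 1 read is worth in that library, so reads were recovered. The members, lists and tests were chosen with earlier results of these data known.

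The test was limma 3.58.1 (R 4.3.3), fitted with an intensity trend to log2(FPKM + 1). It covered the 12640 genes averaging 1 FPKM or more, with Benjamini-Hochberg adjustment over all of them; such differences understate low genes. It has 1 residual degree of freedom, from the knockdown pair, so the single control library is taken to vary as the knockdown libraries do. The variance of each gene is drawn toward that of other genes, with 4.74 prior degrees of freedom in limma and 35.5 in limma-voom. Limma-voom used recovered reads (mean of at least 10). In simulated data both recovered most genes given a large change, but limma in every simulated run, and limma-voom in some, made more false calls than the threshold allows. The simulated libraries had a fixed spread that was not estimated from these data, so that recovery does not measure the power of the tests here. In these data limma called 0 of the 12640 genes, and TRAF7 was not called (limma adjusted p = 0.274). Named genes beside TRAF7 and the members were up to 4 per list with the lowest limma p and up to 3 per marker list with the highest mean, plus the nearest 2 genes by pattern. CD34, FLT3, PROM1, CD44, KIT, KLF1, HBA1, HBA2, HBG1 and PLEKHG3 were added after their values were seen. So were HBB, HBD, HBE1, HBG2, AHSP, ALAS2, HEMGN and the markers given at 0 to 3 reads. Some genes that the rule names are not reported here, and none was put in their place; they still count in the list totals.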

Additional observations from a re-analysis of the deposited data

How the results depend on the processing

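No member passed under any of the 10 tested alternatives (other scalings, filters, pseudocounts, no intensity trend, limma-voom). Over all genes limma called 0, 3 at a mean of at least 5 FPKM, and limma-voom 130. Members at least 1.5-fold in both libraries numbered 0, and 1 (SLC4A1) with no filter and with the limma-voom filter; with 1 knockdown library left out the count was 0 to 1 (GYPB without knockdown 1), and quantile normalization was not run for it. With all libraries, fitted differences ranged from 0.35 to 0.50 for SPTB, −0.32 to −0.15 for EPOR, 0.23 to 0.36 for GYPB and −0.25 to −0.04 for GYPC. Signs turned, with no call, under quantile normalization for ANK1 (−0.01), EPB41 (−0.06), GYPE (−0.00), SLC4A2 (−0.00), RHAG (−0.10), GP6 (0.00) and KRT18 (−0.14), under median-of-ratios rescaling for EPB41 (−0.01), and under scaling to all assigned reads for EPB41 (−0.06) and KRT18 (−0.01). The cause was not tested. With only 1 knockdown library, signs turned for GYPC (0.13), EPB41 (−0.04), SLC4A2 (−0.04), ITGA2B (0.02) and CD33 (0.02) on knockdown 2 alone, and for GYPB (−0.09), GYPE (−0.23) and GP6 (0.08) on knockdown 1 alone. Without either knockdown library no residual degree of freedom is left, so those values have no test. No paired analysis was possible because the control has 1 library. At 18 to 91 reads SLC4A1 is limited by depth, and EPB42 was not measurable.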
